A study of Homo sapiens with 9 samples.

Results

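The 35 genes described here make cholesterol and long-chain fatty acids, sense sterols, or move sterols between membranes and out of the cell. They were taken by symbol from a list of pathway members, drawn up with earlier results of these data known, and are 35 of the 60708 genes listed in the counts. By role they comprise 7 enzymes of the mevalonate pathway, 11 enzymes that turn its product into cholesterol, 5 regulators of the SREBP transcription factors, 5 genes of sterol transport and LXR response, and 7 enzymes of fatty acid synthesis. All 35 passed the filter on low counts in every comparison.

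According to the study, the libraries came from MDA-MB-231, an established human triple-negative breast cancer line. The cells were grown in DMEM with 10% serum and without treatment. The study compared unmodified cells (WT) with cells in which *SNAI1*, a transcriptional repressor of epithelial genes, had been targeted by Cas9 with guides to exon 1, exon 2 and the exon 2/intron 2 junction together with a repair plasmid and puromycin selection. CS16 and CS19 are each 1 clone grown from a single targeted cell. RNA-sequencing covered 3 libraries each of WT, CS16 and CS19, so the 6 libraries labelled *SNAI1*-KO represent 2 clones. The labels do not say whether replicates were separate cultures, and p-values then measure the spread between these libraries only.

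Cells build cholesterol from acetyl-CoA through mevalonate and squalene. When membranes of the endoplasmic reticulum run low in sterol, the escort protein SCAP carries the SREBP factors to the Golgi, where they are cut and freed to switch on sterol and fatty acid genes, and INSIG proteins hold SCAP back when sterol is plentiful. Oxysterols, in contrast, activate the LXR receptors, which switch on cholesterol export through *ABCA1* and *ABCG1*, *MYLIP* and *SREBF1*.

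The identity of the libraries bears on every value below. The count of *SNAI1* over the whole gene was not lower in the libraries labelled *SNAI1*-KO. It was 1.35 ± 0.728 CPM in WT (SD, n = 3) and 2.48 ± 0.997 CPM in the 6 KO-labelled libraries. The study reports lower *SNAI1* mRNA by RT-qPCR in both clones and no detectable SNAI1 protein. It also reports deletions at the *SNAI1* locus in the aligned reads. A count over the whole gene does not show whether the transcript is intact, so loss of functional *SNAI1* was not tested. *CDKN2A*, *CDKN2B* and *MTAP*, which share the chromosome band 9p21, were at 0 counts in all WT libraries and summed to 164 to 182 CPM in the KO-labelled ones. The summed level of 10 genes typical of MDA-MB-231 lay between 7300 and 8069 CPM in WT, against 569 to 590 CPM in CS16 and 533 to 572 CPM in CS19, where *CD44* was at the floor of 3 counts. They were *VIM*, *CD44*, *AXL*, *CAV1*, *CAV2*, *MSN*, *FOSL1*, *EGFR*, *ANXA1* and *LGALS1*. *VIM* and *MSN* kept the highest levels in the KO-labelled libraries, with means of 321 and 167 CPM. The study itself reports lower VIM protein and lower *CD44* and *EGFR* mRNA in the clones. Genes of macrophages summed to 12.2 to 18.9 CPM in WT and at most 1.0 CPM in the clones, with *CD68* and *MARCO* at the floor throughout, while 5 of 6 genes of hepatocytes, 3 or 4 of 5 of adipocytes and 3 or 4 of 5 of steroid-making cells were at or under the floor in every group. In bulk RNA, fewer expressing cells and less RNA per cell cannot be told apart. Groups are therefore named by their labels, and a loss of *SNAI1* and a difference of cell background cannot be told apart. Counted read pairs ranged from 19527195 to 28627777 per library. 1 WT library, WT-2, was unlike the other two. Its counts differed from theirs with chi-square values of 221 and 271 for each degree of freedom, where WT-1 and WT-3 gave 16.9, and results are given with and without it where it matters.

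The promoters of 4 of the genes called below are given as examples. They come from RefSeq on GRCh38.p14, span 250 bases before to 50 bases after the transcription start and are written 5′ to 3′ on the strand of the gene. *HMGCS1* makes the precursor of mevalonate (chr5:43313363-43313662, minus strand), *HSD17B7* reduces a keto group of the sterol ring (chr1:162790452-162790751, plus strand), *INSIG1* retains SCAP (chr7:155297628-155297927, plus strand) and *ABCA1* exports cholesterol (chr9:104928106-104928405, minus strand). The first 3 were higher and *ABCA1* lower in the KO-labelled libraries. Capitals mark every match to the NF-Y box CCAAT, which reads ATTGG on the other strand, and to the E-boxes CACGTG and CACCTG, the latter read CAGGTG on the other strand and known as a SNAI1 motif.
HMGCS1: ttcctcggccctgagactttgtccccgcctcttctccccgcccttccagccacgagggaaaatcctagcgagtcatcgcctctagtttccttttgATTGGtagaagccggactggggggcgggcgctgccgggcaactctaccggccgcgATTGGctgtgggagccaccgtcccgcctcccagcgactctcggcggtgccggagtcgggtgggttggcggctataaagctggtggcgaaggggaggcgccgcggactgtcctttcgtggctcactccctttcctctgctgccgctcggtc
HSD17B7: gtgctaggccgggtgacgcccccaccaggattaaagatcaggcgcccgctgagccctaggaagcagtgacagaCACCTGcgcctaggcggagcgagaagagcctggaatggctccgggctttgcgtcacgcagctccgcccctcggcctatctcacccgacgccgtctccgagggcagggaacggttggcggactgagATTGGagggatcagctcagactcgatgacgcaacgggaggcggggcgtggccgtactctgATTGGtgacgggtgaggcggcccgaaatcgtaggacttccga
INSIG1: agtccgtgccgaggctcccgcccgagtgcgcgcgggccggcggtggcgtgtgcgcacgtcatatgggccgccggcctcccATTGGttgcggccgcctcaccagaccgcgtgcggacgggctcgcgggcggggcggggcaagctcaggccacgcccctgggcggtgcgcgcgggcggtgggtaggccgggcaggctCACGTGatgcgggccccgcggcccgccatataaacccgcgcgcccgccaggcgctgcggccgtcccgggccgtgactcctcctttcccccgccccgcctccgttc
ABCA1: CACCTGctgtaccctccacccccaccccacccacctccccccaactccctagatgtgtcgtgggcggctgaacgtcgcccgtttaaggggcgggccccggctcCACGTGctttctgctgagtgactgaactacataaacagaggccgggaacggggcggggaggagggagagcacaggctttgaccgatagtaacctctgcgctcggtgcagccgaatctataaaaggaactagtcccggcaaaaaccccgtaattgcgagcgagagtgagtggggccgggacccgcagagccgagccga

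The NF-Y box was found 2 times in the promoters of *HMGCS1* and *HSD17B7*, 1 time in that of *INSIG1* and not in the *ABCA1* window, which held a CACGTG and a CACCTG box. Another RefSeq start of *HMGCS1* had none of the motifs. The NF-Y box did not follow direction in every member. *FADS2*, called lower, held 1 at 1 of its starts, and *MYLIP*, which fell, held 2. *CYP51A1*, which rose, held none, and *MVK*, which did not pass with all libraries, held 5. Over the 30 members with a promoter in the set searched, 21 (70.0%) held a CCAAT box on either strand, against 39.7% of all 27305 genes. The set held no promoter for *ACAT2*, *FDFT1*, *SQLE*, *ABCG1* and *FASN*, so these genes were not searched. The CACGTG box was present in 16.7% of the members and 8.77% of all genes, and CACCTG in 26.7% and 24.1%. The sterol response core TCACNCCAC was found in 1 member, *SREBF2*, 133 bases before the start, and in 1.39% of all genes. These are matches of letters in a short window and not sites of binding.

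Most enzymes of cholesterol synthesis were higher in the KO-labelled libraries, while cholesterol export genes, *SREBF1* and the fatty acid desaturase *FADS2* were lower. A gene was called when its log2 fold change was at least 2 in either direction with a Benjamini-Hochberg adjusted p below 0.05 in edgeR's quasi-likelihood test over all genes. Of the 35 members, 5 were called higher (*HMGCS1*, *SQLE*, *HSD17B7*, *SC5D* and *INSIG1*) and 4 lower (*SREBF1*, *ABCA1*, *ABCG1* and *FADS2*). Of all 19631 genes tested, 12.6% were called higher and 14.3% lower, so that the share of members called was near that of all genes. At an adjusted p below 0.05 alone, 14 members rose and 9 fell, against 31.1% and 32.6% of all genes, and 12 did not pass. In 14 members all 6 KO-labelled libraries lay above all WT libraries and in 9 they lay below, where the shares over all genes were 29.7% and 28.7%.

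Counted by role, the genes split as follows. Of the 18 enzymes from acetyl-CoA to cholesterol, 12 rose, none fell and 6 did not pass, with a median log2 fold change of 1.18 against 0.00 over all genes tested. Among the 5 genes of sterol transport and LXR response none rose and 4 fell, with a median of -0.95. The 5 SREBP regulators gave 1 that rose and 2 that fell, and the 7 fatty acid genes 1 and 3. Without WT-2, 13 of the 18 sterol enzymes rose and none fell, with a median of 1.28 against 0.04 over all genes, and all 5 transport genes fell, while the SREBP regulators gave 3 that rose and 2 that fell and the fatty acid genes 3 and 3. The absence of sterol enzymes that fell did not hold in every fit: *EBP* fell without WT-1, *LSS* without WT-1 or WT-3, and in CS16 against WT without WT-2, 3 of the 18 fell, namely *LSS* (-0.25), *PMVK* (-0.52) and *TM7SF2* (-0.41). With both clones against WT and without WT-2, 19 of the 35 members rose and 10 fell, against 34.0% and 33.2% of all genes.

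**Figure D1:**
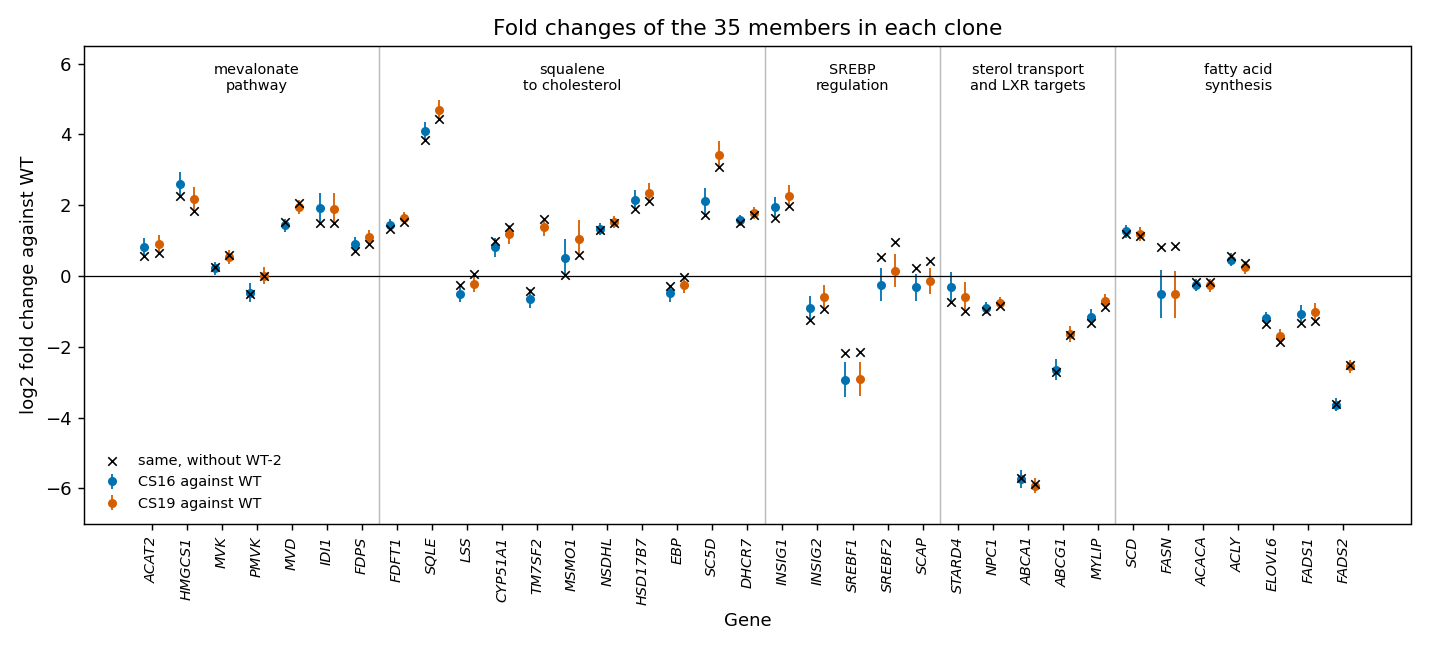
Log2 fold change against WT (vertical axis) of the 35 genes, grouped by role (horizontal axis), for CS16 (blue) and CS19 (orange), with standard errors as bars and crosses for the same fit without WT-2. *SQLE* stands highest at 4.10 and 4.68 and *ABCA1* lowest at -5.74 and -5.92, and the crosses for *FASN* lie above 0 while its points lie below.

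In the mevalonate pathway, 5 of 7 enzymes rose, none fell and 2 did not pass. *HMGCS1*, which joins acetyl-CoA and acetoacetyl-CoA, read 51.9, 21.1 and 48.2 CPM (the deposited counts scaled to library size after TMM normalization) in WT-1 to WT-3, 224, 276 and 216 CPM in CS16 and 188, 162 and 180 CPM in CS19. Every KO-labelled library lay above every WT library, with CS16 highest and WT-2 lowest. The mean was 5.14-fold higher, and the log2 fold change was 2.36 (SE 0.30, adjusted p = 2.8e-05). *IDI1*, the isomerase that makes the active isoprene unit, had 107, 32.1 and 106 CPM in WT, 310, 309 and 286 CPM in CS16 and 290, 285 and 317 CPM in CS19. The clones did not separate from each other and WT-2 was again lowest, and the log2 fold change was 1.87 (SE 0.32, adjusted p = 0.000347), 1.48 without WT-2, and past the cut-off without WT-1 (2.11) or WT-3 (2.12). *MVD*, which decarboxylates mevalonate diphosphate, had 17.5, 23.7 and 19.5 CPM in WT, 50.9, 52.1 and 57.1 CPM in CS16 and 80, 72.5 and 75.3 CPM in CS19, with no overlap between any of the 3 groups (log2 fold change 1.68, SE 0.20, adjusted p = 2.17e-05). *FDPS*, which builds farnesyl diphosphate, averaged 84.6 ± 18.6 CPM in WT (SD, n = 3) and rose to 166 ± 13.0 CPM in the KO-labelled libraries (SD, n = 6), and *ACAT2*, the thiolase of the first step, rose by 0.82 on the log2 scale (SE 0.19, adjusted p = 0.00256). The mevalonate kinase *MVK* had a log2 fold change of 0.35 (adjusted p = 0.0843), which passed without WT-2 (0.43, adjusted p = 0.0306), and the phosphomevalonate kinase *PMVK* one of -0.25 (adjusted p = 0.435). The 2 kinases did not pass where the enzymes on either side of them did, and the difference between the steps was not tested. Counting did not use strand, and other genes overlap 37.7% of the exon bases of *HMGCS1*, 22.2% of *ACAT2*, 18.6% of *FDPS* and 15.0% of *IDI1*, so these levels are uncertain to that extent.

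From squalene to cholesterol, 7 of 11 enzymes rose, none fell and 4 did not pass. *SQLE*, the epoxidase that commits squalene to sterols, had 28.8, 17.5 and 30.2 CPM in WT, 445, 414 and 421 CPM in CS16 and 576, 694 and 636 CPM in CS19. The 3 groups did not overlap, and CS19 was highest. Its mean of 531 ± 121 CPM in the KO-labelled libraries was 20.8-fold that of 25.5 ± 6.94 CPM in WT. The log2 fold change was 4.38 (SE 0.29, adjusted p = 1.31e-07), and 4.16 without WT-2. *SC5D*, the desaturase that adds a double bond near the end of the pathway, had 62.5, 23.7 and 66.3 CPM in WT, 219, 216 and 207 CPM in CS16 and 508, 545 and 546 CPM in CS19. CS16 and CS19 were tight within and far apart from each other, and the mean was 7.35-fold higher than in WT (log2 fold change 2.88, SE 0.49, adjusted p = 0.00031). *HSD17B7* had 13.2, 6.97 and 12 CPM in WT, 43.9, 53.6 and 43 CPM in CS16 and 53.1, 50.4 and 56.8 CPM in CS19, a 4.68-fold rise without separation of the clones (log2 fold change 2.22, SE 0.22, adjusted p = 4.03e-06). Without WT-2 the value was 1.99, just under the cut-off, and the count is uncertain because the gene has a near-identical pseudogene.

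*DHCR7*, which makes the last reduction to cholesterol, had 64.8, 58.3 and 65.5 CPM in WT, 182, 179 and 190 CPM in CS16 and 200, 230 and 202 CPM in CS19 (log2 fold change 1.65, SE 0.14, adjusted p = 9.96e-07). *FDFT1*, the squalene synthase, had 81.3, 69.8 and 88.2 CPM in WT, 209, 231 and 197 CPM in CS16 and 237, 235 and 254 CPM in CS19 (log2 fold change 1.51, SE 0.14, adjusted p = 3.03e-06). Both genes varied little within a group, and all KO-labelled libraries lay above all WT libraries. *NSDHL*, which removes a carboxyl group during demethylation of the ring, had 31.1, 34.3 and 38.6 CPM in WT, 84.4, 88.8 and 83.2 CPM in CS16 and 90.2, 107 and 92.3 CPM in CS19 (log2 fold change 1.39, SE 0.14, adjusted p = 5.33e-06). *CYP51A1*, the lanosterol demethylase, rose by 0.97 on the log2 scale (SE 0.24, adjusted p = 0.00433), but read-through and antisense genes overlap 84.5% of its exon bases. The 4 enzymes that did not pass were *LSS*, which closes the sterol rings (-0.39, adjusted p = 0.0848), the isomerase *EBP* (-0.40, adjusted p = 0.073), the methyl oxidase *MSMO1* (0.77, adjusted p = 0.123) and the reductase *TM7SF2* (0.66, adjusted p = 0.311). *MSMO1* had 84.4, 18.5 and 98 CPM in WT, 86.2, 110.9 and 84.2 CPM in CS16 and 144, 117.05 and 144 CPM in CS19, so that WT-1 and WT-3 overlapped CS16 and WT-2 lay below. *LSS* had 139, 230 and 137 CPM in WT, where WT-2 was the highest of all 9 libraries, against 110 to 121 CPM in CS16 and 137 to 150 CPM in CS19. For *LSS*, *EBP* and *MSMO1* the call turned on single WT libraries or the filter, while *TM7SF2* did not pass without WT-2 either (0.92, adjusted p = 0.229). *LSS* fell by 0.51 without WT-1 (adjusted p = 0.0497) and by 0.49 without WT-3 (adjusted p = 0.048), *EBP* fell by 0.58 without WT-1 (adjusted p = 0.0178), and *MSMO1* rose by 1.17 without WT-3 (adjusted p = 0.0491) and by 0.87 without the filter on low counts (adjusted p = 0.0457). Other genes overlap 36.4% of the exon bases of *EBP*.

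**Figure D2:**
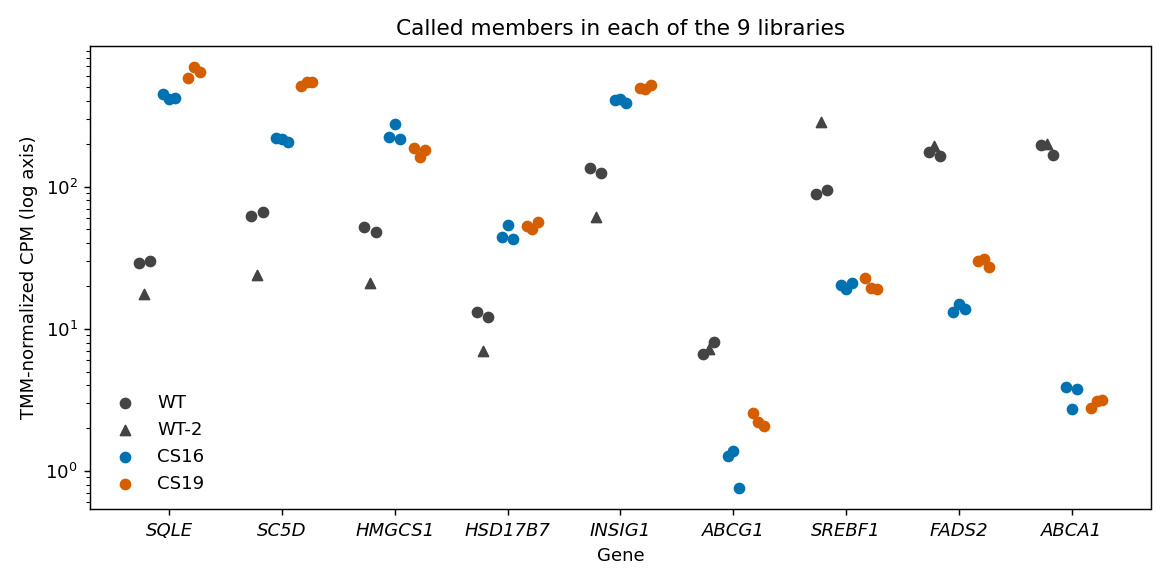
CPM on a log axis (vertical) of the 9 called genes (horizontal) in each library of WT (grey, with WT-2 as a triangle), CS16 (blue) and CS19 (orange). In every gene the 6 KO-labelled libraries lie on one side of the WT libraries, from *SQLE* at 414 to 694 CPM against 17.5 to 30.2 CPM down to *ABCA1* at 2.72 to 3.87 CPM against 167 to 200 CPM.

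Compared per length, in TPM, which scales counts to exon length and library size, the order of the levels along the pathway changed. In WT, *SQLE* was among the lower sterol enzymes at 18.8 ± 4.6 TPM (SD, n = 3) and *EBP* the highest at 110.5 ± 38.1 TPM, whose SD overlapped that of *PMVK* at 87.0 ± 6.03 TPM. *SQLE* was the highest sterol enzyme in CS16 at 310 ± 51.5 TPM and in CS19 at 449 ± 71.8 TPM, followed by *IDI1* at 219 ± 30.8 and 210 ± 9.43 TPM. *SC5D* followed in CS19 at 161 ± 16.2 TPM, next to *NSDHL* at 148 ± 26.8 TPM, which did not differ beyond its spread. *TM7SF2* was lowest of these enzymes in CS16 at 6.81 ± 1.51 TPM. Over all 35 genes *ACLY* had the highest mean in WT at 315 ± 72.3 TPM, but its SD overlapped those of *SCD* at 261 ± 66.3 TPM and *FASN* at 223 ± 248 TPM. *SCD* had the highest mean in CS16 at 592 ± 90.0 TPM and in CS19 at 540 ± 66.2 TPM, where its SD overlapped that of *SQLE*.

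**Figure D3:**
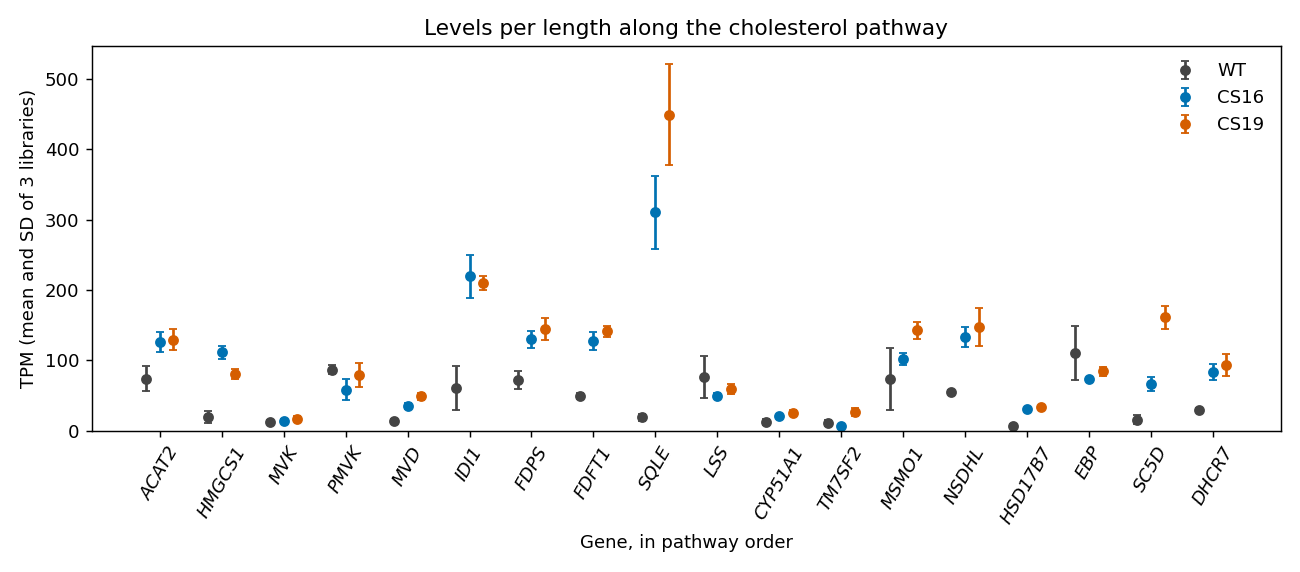
Level per length in TPM (vertical axis, points are means and bars SD of 3 libraries) of the 18 enzymes in pathway order (horizontal axis) in WT (grey), CS16 (blue) and CS19 (orange). *SQLE* shows the widest gap, from 18.8 TPM in WT to 310 and 449 TPM in the clones, and *EBP*, *LSS* and *PMVK* have means in both clones below that in WT.

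Among the SREBP regulators, *INSIG1* was called higher and *SREBF1* lower. *INSIG1*, itself a target of the SREBP factors, had 134, 61.5 and 124 CPM in WT, 405, 413 and 386 CPM in CS16 and 496, 484 and 521 CPM in CS19. The 3 groups did not overlap, and the mean was 4.23-fold higher (log2 fold change 2.08, SE 0.25, adjusted p = 1.98e-05; 1.80 without WT-2). Its paralogue *INSIG2* moved the other way, from 43.2, 18.7 and 42.5 CPM in WT to between 15.8 and 21.4 CPM in CS16 and 18 and 26.4 CPM in CS19 (log2 fold change -0.78, SE 0.26, adjusted p = 0.0193). WT-2 lay within the range of the KO-labelled libraries, and the difference no longer passed without WT-1 (adjusted p = 0.0992) or WT-3 (adjusted p = 0.0995). *SREBF1*, which encodes the SREBP form devoted mainly to fatty acid genes, had 88, 286 and 95.3 CPM in WT, 20.3, 19.1 and 21 CPM in CS16 and 22.9, 19.3 and 18.9 CPM in CS19. The clones were alike within their spread and WT-2 was about 3 times the other WT libraries, with a log2 fold change of -2.95 (SE 0.31, adjusted p = 6.27e-06) that was -2.18 without WT-2. *SREBF2*, the form devoted mainly to sterol genes, had 65.2, 192 and 51.9 CPM in WT, 86.4, 82.1 and 87.8 CPM in CS16 and 109, 123 and 103 CPM in CS19. It did not pass (log2 fold change -0.06, adjusted p = 0.884), but rose by 0.75 (adjusted p = 0.00177) without WT-2. *SCAP* likewise had 87.4, 225 and 91.8 CPM in WT and 99.9 to 124 CPM in the clones (log2 fold change -0.26, adjusted p = 0.40), and rose by 0.32 (adjusted p = 0.0118) without WT-2.

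Of the 5 genes of sterol transport and LXR response 4 fell, and *ABCA1* had the largest log2 fold change of all 35. *ABCA1*, which loads cholesterol onto lipid-poor apolipoproteins, had 197, 200 and 167 CPM in WT, 3.87, 2.72 and 3.74 CPM in CS16 and 2.77, 3.12 and 3.14 CPM in CS19. WT-2 did not stand apart here, and the clones overlapped at a level 58.3-fold lower than in WT (log2 fold change -5.86, SE 0.16, adjusted p = 2.58e-10; -5.82 without WT-2). *ABCG1*, which passes cholesterol to mature lipoproteins, had 6.66, 7.25 and 8.01 CPM in WT, 1.27, 1.38 and 0.756 CPM in CS16 and 2.55, 2.21 and 2.06 CPM in CS19. It was 4.28-fold lower from a low level (log2 fold change -2.09, SE 0.32, adjusted p = 0.000123), with CS16 below CS19, and lay just under the cut-off without CS16-3 (-1.94) or without the filter (-1.99). *MYLIP*, a ubiquitin ligase that removes lipoprotein receptors, had 30.5, 22.2 and 32.4 CPM in WT, 12.9, 12.1 and 12.6 CPM in CS16 and 15, 16.4 and 18.8 CPM in CS19 (log2 fold change -0.95, SE 0.19, adjusted p = 0.000861). *NPC1*, which lets cholesterol leave the lysosome, averaged 171 ± 14.5 CPM in WT (SD, n = 3) and 94.0 ± 5.49 CPM in the KO-labelled libraries (SD, n = 6), and fell by 0.86 on the log2 scale (adjusted p = 5.07e-05). *STARD4*, a cytosolic sterol carrier, had 86.6, 26.4 and 90.3 CPM in WT, 51.6, 57.3 and 50.1 CPM in CS16 and 45.1, 39.6 and 45.9 CPM in CS19. Only WT-2 lay below the clones, and the log2 fold change of -0.49 (adjusted p = 0.177) became -0.88 (adjusted p = 7.3e-05) without it.

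Fatty acid synthesis did not move as one group. *SCD*, which puts the first double bond into stearate, rose from 496, 398 and 371 CPM in WT to 1023, 982 and 974 CPM in CS16 and 903, 968 and 922 CPM in CS19 (log2 fold change 1.19, SE 0.15, adjusted p = 2.29e-05). The desaturases of polyunsaturated fatty acids, *FADS2* and *FADS1*, which are neighbours on chromosome 11, both fell. *FADS2* had 176, 193 and 164 CPM in WT, 13.2, 14.9 and 13.8 CPM in CS16 and 30, 31.1 and 27.3 CPM in CS19, 8.18-fold lower overall and lowest in CS16 (log2 fold change -3.03, SE 0.29, adjusted p = 2.86e-06). *FADS1* had 233, 134 and 235 CPM in WT, 91.8, 99.6 and 89.4 CPM in CS16 and 93.9, 97.8 and 97.2 CPM in CS19, with the clones alike (log2 fold change -1.08, SE 0.17, adjusted p = 0.000158). *ELOVL6*, which lengthens palmitate, had 161, 114.8 and 159 CPM in WT, 63.6, 63.4 and 58.7 CPM in CS16 and 44.9, 42.7 and 43.1 CPM in CS19, with no overlap between any of the 3 groups (log2 fold change -1.46, SE 0.18, adjusted p = 2.62e-05). The enzymes that supply and build palmitate did not pass with all libraries. *ACLY*, which makes cytosolic acetyl-CoA, had 447, 598 and 479 CPM in WT, 670, 684 and 693 CPM in CS16 and 562, 612 and 580 CPM in CS19 (log2 fold change 0.32, adjusted p = 0.0788). It rose by 0.45 without WT-2 (adjusted p = 0.00585), and also passed with upper-quartile normalization (adjusted p = 0.0417) and in DESeq2 (adjusted p = 0.0415). *ACACA*, which makes malonyl-CoA, had a log2 fold change of -0.29 (adjusted p = 0.0625) and fell by 0.37 without WT-3 (adjusted p = 0.026). *FASN*, the fatty acid synthase, had 251, 1377 and 227 CPM in WT, 422, 385 and 469 CPM in CS16 and 452, 436 and 379 CPM in CS19. The log2 fold change was -0.54 (adjusted p = 0.32) with WT-2 and 0.82 (adjusted p = 6.89e-05) without it, so the direction rested on that 1 library, and DESeq2 returned no p-value for this gene in the comparison of both clones with WT.

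The distance of WT-2 from the other WT libraries moved with the base composition of the genes. Across the 35 genes, the log2 ratio of WT-2 to the mean of WT-1 and WT-3 correlated with the GC content of the exons at Pearson's r of 0.778 and Spearman's rho of 0.789, and across 14708 genes with a mean of at least 1 CPM in WT-1 and WT-3 at 0.696 and 0.720. Genes within 1 library share its preparation and are not independent replicates, so these values are a description. *FASN* had the highest GC content of the members, 65.2%, and *STARD4* the lowest, 34.6%. The part of base composition in the differences between the groups was not tested.

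Clone by clone against the same 3 WT libraries, 4 members were called higher and 4 lower in CS16, where 11.8% and 15.3% of all genes were, and 5 higher and 3 lower in CS19, where 12.0% and 14.4% were. The 2 comparisons share their controls, so they are given side by side. *HMGCS1*, *SQLE*, *HSD17B7* and *SC5D* were called higher in both, with log2 fold changes of 2.59 and 2.17, 4.10 and 4.68, 2.16 and 2.36, and 2.11 and 3.43 in CS16 and CS19. *INSIG1* had 1.94 in CS16, under the cut-off, and 2.27 in CS19, and *ABCG1* -2.65 in CS16 and -1.64 in CS19. *SREBF1* had -2.93 and -2.91, *ABCA1* -5.74 and -5.92, and *FADS2* -3.64 and -2.55. Without WT-2, *HMGCS1* and *SQLE* were called higher in CS16, and *MVD*, *SQLE*, *HSD17B7* and *SC5D* in CS19.

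The clones also differed from each other within the gene set. In edgeR's quasi-likelihood test of CS16 against CS19, 4 members were higher in CS16 and 14 lower at an adjusted p below 0.05, against 14.7% and 12.7% of all genes. *TM7SF2*, a sterol reductase of the nuclear membrane and endoplasmic reticulum, had 7.6, 6.34 and 8.19 CPM in CS16 and 30.5, 33.3 and 26 CPM in CS19, with 9.57, 15.6 and 10.1 CPM in WT between them. It was the 1 member past the cut-off, with a log2 fold change of -2.02 (SE 0.12, adjusted p = 1.06e-07), and against WT it had -0.64 (adjusted p = 0.0735) in CS16 and 1.38 (adjusted p = 0.0026) in CS19. The value lay at the cut-off, with -1.91 without CS16-2, -1.99 without CS19-1, -1.93 without CS19-2 and -1.999 in DESeq2. *SC5D* was lower in CS16 by 1.32 on the log2 scale (SE 0.06, adjusted p = 1.26e-08), and so were *FADS2* by 1.08 (SE 0.09, adjusted p = 1.82e-06) and *ABCG1* by 1.01 (SE 0.26, adjusted p = 0.0116). The other 10 that were lower in CS16 and the 4 that were higher differed by 0.58 or less. When the spread was estimated over all 3 groups, WT-2 included, 2 of the 18 still passed, *TM7SF2* (adjusted p = 0.00141) and *FADS2* (adjusted p = 0.00262).

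**Figure D4:**
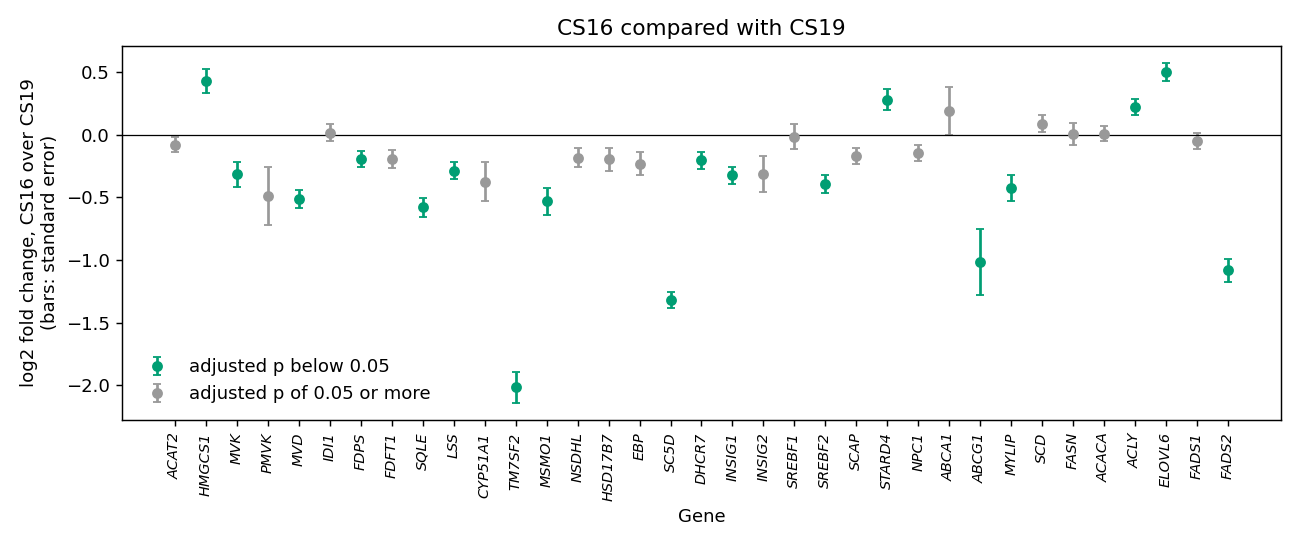
Log2 fold change of CS16 over CS19 (vertical axis, bars are standard errors) for the 35 genes (horizontal axis), green where the adjusted p was below 0.05 and grey otherwise. *TM7SF2* lies lowest at -2.02, followed by *SC5D* at -1.32, and *ELOVL6* lies highest at 0.50.

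Of 73 further genes of these pathways, listed by role, 69 were tested in the KO-labelled libraries against WT, and 29 rose, 24 fell and 16 did not pass, which is 42.0% that rose and 34.8% that fell, against 31.1% and 32.6% of all genes tested. The same all-gene shares apply to the counts by role. Of the enzymes that branch off the mevalonate pathway or assist sterol enzymes, 9 of 11 tested rose and 2 fell. *GGPS1*, which makes geranylgeranyl diphosphate, rose 3.89-fold from 10.3 ± 5.14 to 39.9 ± 7.10 CPM, and *ERG28*, a scaffold of the demethylation complex, 3.93-fold from 13.7 ± 3.52 to 53.9 ± 4.44 CPM (SD, n = 3 and 6). *GGPS1* had 12.1, 4.45 and 14.2 CPM in WT-1 to WT-3, so WT-2 lowered its WT mean and raised this fold. Of the LXR receptors and further targets 2 of 8 rose and 3 fell, all 3 of them receptors. *NR1H2*, the LXR form found in most tissues, fell by 1.96 on the log2 scale (SE 0.15, adjusted p = 5.57e-07), and its partners *RXRA* and *RXRB* fell by 1.42 and 1.49. *NR1H3*, the other LXR form, had a log2 fold change of -0.17 (adjusted p = 0.445). The genes of SREBP processing gave 3 of 10 that rose and 2 that fell, those of sterol uptake, storage and movement 4 and 6 of 13, and those of oxysterol synthesis 1 and 2 of 3. Without WT-2, 31 of the 69 rose and 25 fell, against 34.0% and 33.2% of all genes. The enzymes that branch off or assist then gave 9 that rose and 1 that fell. The LXR list gave 3 and 4, and sterol uptake, storage and movement 4 and 7. The counts for SREBP processing and oxysterol synthesis stayed the same.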

How the data were processed

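Per the labels and the study's methods, total RNA was depleted of ribosomal RNA, converted to strand-specific, paired-end libraries. The authors used Trimmomatic 0.36 for trimming and STAR 2.7.2b for alignment to GRCh38, and counted pairs per gene with featureCounts of Subread 2.0.0 without using strand. The deposited values were raw counts of 9 libraries (19527195 to 28627777 pairs each), with no pooling, no molecular identifiers and no normalization. A count of 0 allows up to 3 counts, and this floor covers counting error only.

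After filterByExpr and TMM normalization, genes were tested in R 4.3.3 with edgeR 4.0.16 (quasi-likelihood test, Benjamini-Hochberg adjustment over all genes tested), each comparison fitted on its own groups. Alternatives used DESeq2 1.42.0, other normalizations and filters, a cut-off of 1, the replicate number as a block, a fit of all 3 groups and each library left out. TPM used the exon lengths in the deposited files. Overlaps and GC content came from the gencode annotation on GRCh38, with a GC value for 99.95% of tested genes. Tables and figures used matplotlib 3.10.9, pandas 2.3.3 and numpy 2.4.6 under Python 3.11.15. Scripts were tested on simulated counts. Genes were named when called in a comparison with WT, when past a log2 fold change of 1 with an adjusted p below 0.05 with both clones joined, or when the clones differed. *FASN*, *SCAP* and *INSIG2* by library, *GGPS1*, *ERG28*, the LXR receptors and their partners were added after their values were seen. The members, the lists and the naming rule were chosen with earlier results of these data known.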

Additional observations from a re-analysis of the deposited data

Results flagged for a closer look

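For 18 members the direct test of CS16 against CS19 (edgeR's quasi-likelihood test, Benjamini-Hochberg adjusted p below 0.05) found a difference between the clones, and they are listed as log2 fold changes of CS16 over CS19. The 14 that were lower in CS16 were *TM7SF2* (-2.02), *SC5D* (-1.32), *FADS2* (-1.08), *ABCG1* (-1.01), *SQLE* (-0.58), *MSMO1* (-0.53), *MVD* (-0.51), *MYLIP* (-0.43), *SREBF2* (-0.39), *INSIG1* (-0.32), *MVK* (-0.32), *LSS* (-0.29), *DHCR7* (-0.20) and *FDPS* (-0.20). The 4 that were higher in CS16 were *ELOVL6* (0.50), *HMGCS1* (0.43), *STARD4* (0.28) and *ACLY* (0.22).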

How the results depend on the processing

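Across the alternatives, the count of called members in the KO-labelled libraries against WT stayed between 7 and 10 and that in either clone against WT between 6 and 10, except with a log2 cut-off of 1, which gave 17 (11 higher, 6 lower), 18 in CS16 and 20 in CS19. Leaving out single libraries gave 7 to 10 called in the KO-labelled libraries against WT, 6 to 10 in CS16 and 7 to 9 in CS19. For CS16 against CS19, 4 passed the cut-off of 1, DESeq2 called 0 and leaving out single libraries gave 0 to 1, with 0 without CS16-2, CS19-1 or CS19-2, while 13 to 21 members had an adjusted p below 0.05 with single libraries left out and 2 had one in the fit of all 3 groups. DESeq2 found 16 members at an adjusted p below 0.05 between the clones.

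The direction of *SREBF2*, close to 0 in the KO-labelled libraries against WT, turned to 0.063 (adjusted p = 0.872) without a filter, to 0.12 (adjusted p = 0.76) with the replicate block and to 0.75 without WT-2. Those of *SCAP* and *FASN* turned to 0.32 and 0.82 without WT-2. Over all single libraries left out, the values ranged from -0.36 to 0.75 for *SREBF2*, -0.50 to 0.32 for *SCAP* and -0.92 to 0.82 for *FASN*. The replicate numbers did not pair the libraries: deviations of libraries with the same number correlated between -0.387 and 0.331. The block gave 9 called members against WT, 10 in CS16, 9 in CS19, and 12 in place of 18 members between the clones. The cause of these shifts was not tested. The groups of 3 libraries, with WT-2 apart from the others, limit the precision of all comparisons with WT.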

Other observations

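The largest differences among the further pathway genes lay outside sterol synthesis itself. *ELOVL4*, which makes very long chain fatty acids, had no count in WT and 54.4 ± 4.05 CPM in the KO-labelled libraries (SD, n = 6), at least 318-fold higher against a floor of 3 counts per library, and *ELOVL2*, which lengthens polyunsaturated fatty acids, was 171-fold higher (44.6 ± 4.83 against 0.260 ± 0.0340 CPM). *STARD5*, a sterol carrier, and *GRAMD1B*, which moves cholesterol from the plasma membrane, were 9.40-fold and 4.08-fold higher. *CYP46A1*, a sterol hydroxylase, was at least 2.40-fold higher but close to the floor. It had 0.410 ± 0.150 CPM in the KO-labelled libraries and 0 to 3 counts per library in WT. *ACSL5*, which activates fatty acids, was 499-fold lower (181 ± 23.4 CPM in WT against 0.364 ± 0.110 CPM). *NCEH1*, which splits cholesterol esters, was 18.9-fold lower, *CYP27A1*, which makes an oxysterol, 11.7-fold, and *FADS3*, a further desaturase, 4.6-fold, with WT-2 the highest library (log2 fold change -2.20 with WT-2 and -1.88, under the cut-off, without it). *CH25H*, which makes another oxysterol, was at least 18.5-fold lower, from 2.72 ± 0.176 CPM in WT. These 10 were all of the 69 tested that were called, 5 in each direction, or 7.25% each, below the 12.6% of all genes called higher and the 14.3% called lower.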
